A study of Mus musculus with 69 samples.

Results

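The 8 genes described here encode water channels of the mouse kidney (Aqp1, Aqp2, Aqp3, Aqp4, Aqp6, Aqp7 and Aqp11) and the vasopressin V2 receptor, Avpr2. They were chosen by symbol from 24523 genes with complete counts, and all 8 had enough reads to be tested in every fit. RNA was sequenced from perfused whole kidneys of NZB/W F1 mice, a strain with spontaneous lupus nephritis. The young mice (n = 30) were 12 weeks old, and the nephritic mice (n = 27) were 30 to 45 weeks old and had reached a proteinuria of 300 mg/dl. Both groups were untreated and were harvested at zeitgeber times (ZT) 0, 4, 8, 12, 16 and 20. The remission mice (n = 8) were 36 to 50 weeks old and had received cyclophosphamide (50 mg/kg, 1 dose), CTLA4Ig (200 µg) and anti-CD40L (250 µg; 6 doses each over 2 weeks) after nephritis began. They kept a proteinuria of 30 mg/dl or less and were harvested after 8 weeks, 4 at ZT0 and 4 at ZT12. Age and nephritis cannot be told apart in the comparison with young mice, since no untreated old mouse without nephritis was analysed here.

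Water leaves the proximal tubule and the thin descending limb through AQP1, which is present on both sides of the cell. In the collecting duct, vasopressin binds the V2 receptor on principal cells, raises cAMP and moves AQP2 from vesicles to the apical membrane, while AQP3 and AQP4 let the water out on the basolateral side. AQP6 lies in vesicles of acid-secreting intercalated cells. AQP7 is a water and glycerol channel of the last proximal segment and of fat cells, and AQP11 is an intracellular channel of the proximal tubule. In mice AQP4 is also known from the last proximal segment.

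Total counts per library were 25257530 to 35744843 in young mice, 26596500 to 48075977 in nephritic mice and 13311278 to 21849912 in remission mice. The libraries of 6 young and 5 nephritic mice, all at ZT0 or ZT12, carry titles that begin with CR or HIL and are called set 1. The other 24 young and 22 nephritic libraries are set 2. The nephritic mice of set 1 held the library with the highest summed tubule injury markers. All remission libraries are grouped here with the repeat libraries of 4 mice as a later set, the last in accession order. This set was taken as a sequencing run of its own, which the labels of diagnosis, time and title do not state. The repeat of nephritic ZT12 replicate 6 was nearest to another mouse, with its own original at rank 15 of 65. One remission library labelled ZT12, replicate 4, held 27.01 CPM of Arntl and 7.9 CPM of Dbp, levels close to those at ZT0. Nephritic ZT8 replicate 3 held 18.03 CPM of Arntl and 10.1 CPM of Dbp, against 2.13 to 3.73 CPM and 109 to 140 CPM in the 3 other nephritic mice labelled ZT8. Levels are CPM, counts scaled to a common library total after TMM normalization. Results that rest on these libraries are given with and without them.

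The genes lie on 5 autosomes and the X chromosome (GRCm38). Aqp2 (ENSMUSG00000023013, chr15:99579055-99584547) and Aqp6 (ENSMUSG00000043144, chr15:99601400-99605477) are neighbours on the plus strand, 16852 bases apart, with Aqp5 between them. Aqp3 (ENSMUSG00000028435, chr4:41092722-41098183) and Aqp7 (ENSMUSG00000028427, chr4:41033074-41048139) lie 44582 bases apart on the minus strand. Aqp1 (ENSMUSG00000004655) lies at chr6:55336432-55348555, Aqp11 (ENSMUSG00000042797) at chr7:97724006-97738289 and Avpr2 (ENSMUSG00000031390) at chrX:73892102-73895502. Avpr2 overlaps L1cam and Arhgap4 on the opposite strand. The strand setting of the counting is not given in the sources used here, so reads of these genes could be counted for Avpr2.

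The bases just upstream of the annotated start are shown for Aqp2, the member whose daily course differed between the groups, for Aqp3, a basolateral channel of the same cell, and for Aqp6, the chromosomal neighbour of Aqp2. The sequences are RefSeq upstream windows of 250 bases (GRCm38.p6), written 5′ to 3′ on the gene's strand: Aqp2 chr15:99578806-99579055 (plus), Aqp3 chr4:41098184-41098433 (minus) and Aqp6 chr15:99600950-99601199 (plus). Capitals mark matches on either strand to 4 motifs. The first is TGACG, the core of the cAMP response element, and the second is CACGTG, the E-box bound by clock factors. The other two are AGATAA, a site of the GATA factors, and TGGAAA, the core of the site of the osmotic factor NFAT5.
Aqp2: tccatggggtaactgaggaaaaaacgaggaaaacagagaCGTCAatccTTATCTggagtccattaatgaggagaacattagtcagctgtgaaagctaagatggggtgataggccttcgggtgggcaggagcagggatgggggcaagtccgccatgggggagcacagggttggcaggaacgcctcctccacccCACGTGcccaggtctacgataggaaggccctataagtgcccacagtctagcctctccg
Aqp3: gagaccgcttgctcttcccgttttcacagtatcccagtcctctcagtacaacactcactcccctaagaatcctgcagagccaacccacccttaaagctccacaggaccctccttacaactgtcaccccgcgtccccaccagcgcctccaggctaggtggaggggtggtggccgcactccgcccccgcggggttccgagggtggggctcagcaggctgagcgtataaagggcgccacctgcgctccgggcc
Aqp6: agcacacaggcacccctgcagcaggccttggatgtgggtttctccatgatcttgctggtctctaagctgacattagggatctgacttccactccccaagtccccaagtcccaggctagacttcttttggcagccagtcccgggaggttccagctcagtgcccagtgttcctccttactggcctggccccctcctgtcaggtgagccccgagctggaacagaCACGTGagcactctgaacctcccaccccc
The Aqp2 window held 1 cAMP core at −211 to −207, 1 GATA site at −202 to −197 and 1 E-box at −58 to −53. The Aqp6 window held 1 E-box at −29 to −24, and the RefSeq start of Aqp6 lies 200 bases upstream of the GENCODE start. The Aqp3 window held no match to these letters. Of all 32851 RefSeq windows, 17.8% held the cAMP core, 6.02% the E-box, 9.99% the GATA site and 18.6% the NFAT5 core. The full cAMP element, TGACGTCA, which contains the core and was present in 1.55% of windows, was in none of the members' windows. Of the 8 genes, 7 had an entry, and Aqp4 had none.

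Aqp1 and Aqp2 were the most abundant members. Divided by the length of the annotated exons, the mean level in young mice (± SD, n = 30) was 497 ± 48.7 CPM per kb for Aqp1, 430.1 ± 84.1 for Aqp2, 63.7 ± 13.1 for Aqp3 and 47.3 ± 10.6 for Aqp6. Lower levels were seen for Aqp4 (28.3 ± 13.1 CPM per kb), Avpr2 (11.3 ± 1.96), Aqp7 (10.8 ± 1.36) and Aqp11 (5.55 ± 0.69). Among neighbours in this order, the intervals of 1 SD overlapped for Aqp1 and Aqp2, Aqp3 and Aqp6, Aqp6 and Aqp4, and Avpr2 and Aqp7, and did not overlap for the others. In nephritic mice (n = 27) the order of the first pair was turned, with 557 ± 252 CPM per kb for Aqp2 and 315 ± 119 for Aqp1. These intervals overlapped too. The turn depends on the division by length, since the nephritic means in CPM were 828 for Aqp1 and 790 for Aqp2.

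This order was also read within each mouse, as the ratio of Aqp1 to Aqp2 per length. The ratio ranged from 0.92 to 1.86 with a median of 1.10 in young mice, and Aqp1 was above Aqp2 in 24 of 30. In nephritic mice it ranged from 0.083 to 1.38 with a median of 0.60, and Aqp2 was above Aqp1 in 20 of 27. All 5 nephritic mice of set 1 were on the Aqp2 side, as were 15 of the 22 of set 2. In remission mice it ranged from 0.72 to 1.83 with a median of 0.89, and 5 of 8 had more Aqp2.

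The first comparison asked how the level of each gene differed between nephritic and young kidneys over all times of day. Of the 8 members, 4 fell and 1 rose at an adjusted p of at most 0.05 (edgeR quasi-likelihood test with time point and set as covariates). This is set against 62.1% of all 17521 genes called, 28.1% higher and 33.9% lower, so the count itself is not above the background. At ZT0 and ZT12 alone the same 5 passed, against 55.5% of all genes. Without set 1, where 40.7% of all genes were called, Aqp1 (−0.54, adjusted p = 0.0314), Aqp11 (−0.74, adjusted p = 0.0161) and Aqp6 (−0.36, adjusted p = 0.0263) passed at these times. Aqp2 (0.09, adjusted p = 0.719), Aqp4 (−0.64, adjusted p = 0.199) and Aqp7 (−0.18, adjusted p = 0.0510) did not. Over all times of day and with both sets, the median log2 change of the members was −0.15, against −0.03 for all genes tested.

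The proximal channels fell. Aqp1 ranged from 1110 to 1652 CPM with a median of 1303 in young mice, and from 168 to 1316 with a median of 843 in nephritic mice. Of the 27 nephritic mice, 21 lay below the lowest young mouse. The log2 change was −0.69 (SE 0.12, adjusted p = 2.76e-06), and the 24 set 2 young against the 22 set 2 nephritic mice gave −0.51 (SE 0.10). Aqp11 ranged from 36.9 to 65.8 CPM (median 53.0) in young and from 6.37 to 52.6 CPM (median 32.5) in nephritic mice, with 18 of 27 below all young mice. The log2 change of Aqp11 was −0.78 (SE 0.14, adjusted p = 2.28e-06). In bulk tissue, fewer cells of a type and less RNA per cell cannot be told apart. All 8 proximal tubule markers also fell, with a median log2 change of −0.77, and their summed level ranged from 11988 to 19141 CPM in young and from 2088 to 14900 CPM in nephritic mice. The part of these cells in the change of Aqp1 and Aqp11 was not tested.

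**Figure D1:**
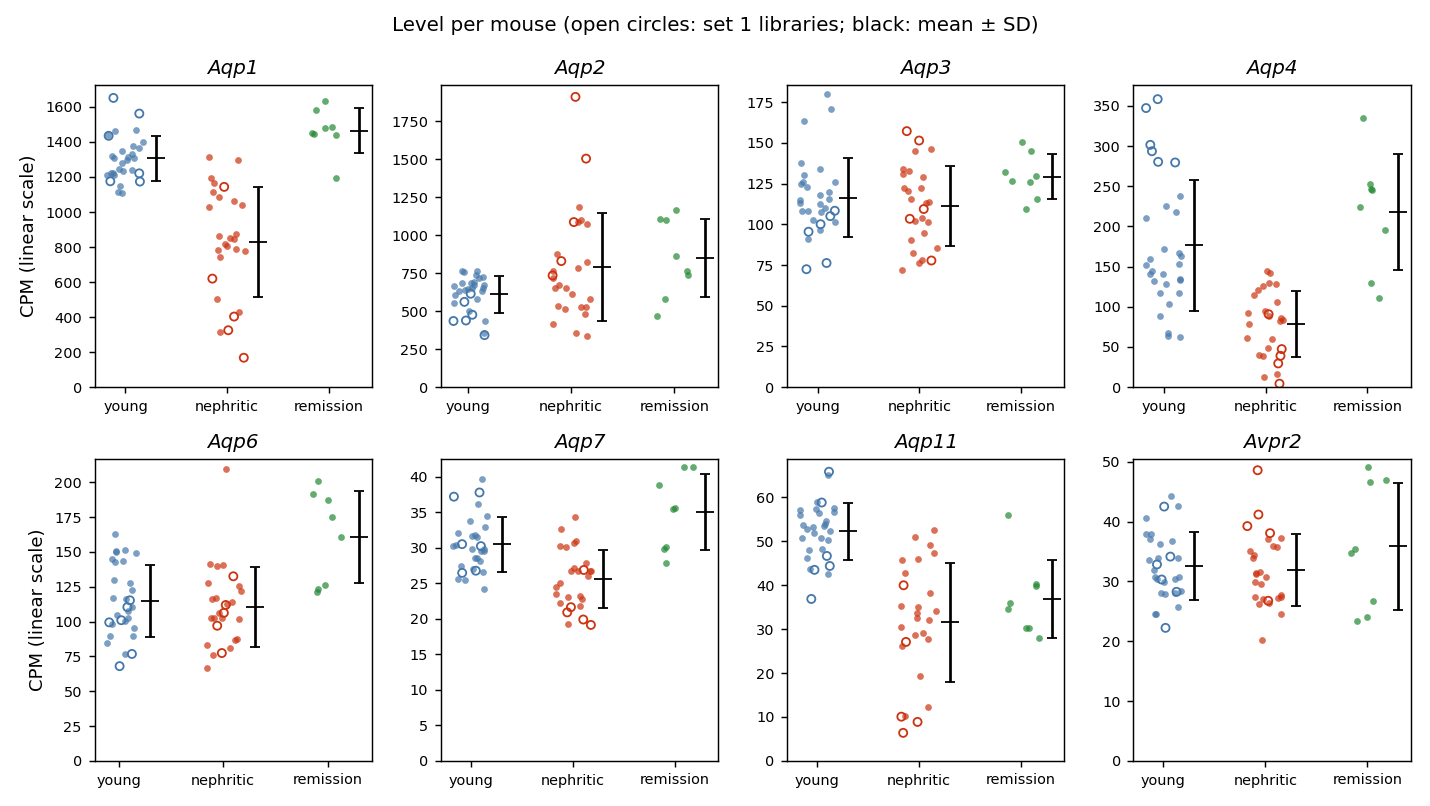
Scaled counts (CPM, vertical axes, linear from 0) of the 8 genes in each mouse, by group (horizontal axis: young n = 30, nephritic n = 27, remission n = 8). Open circles are set 1 libraries, and the black mark and bar give the mean and SD. Most nephritic mice lie below all young mice for Aqp1 (21 of 27) and Aqp11 (18 of 27), while the points of Aqp3, Aqp6 and Avpr2 overlap.

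Aqp4 and Aqp7 fell as well. Aqp4 ranged from 62.7 to 359 CPM (median 153) in young mice and from 4.28 to 145 CPM (median 84.1) in nephritic mice. All 27 nephritic mice were below the young median and 11 were below the lowest young mouse. The log2 change of Aqp4 was −1.07 (SE 0.24, adjusted p = 9.81e-05) and −0.67 (SE 0.20, adjusted p = 0.00429) within set 2 alone. The sets differed in size: at ZT0 and ZT12 the difference of the mean log2 CPM was −3.40 within set 1 and −1.04 within set 2, and the 6 young mice of set 1 (280 to 359 CPM) were above the 8 of set 2 at these times (63.6 to 226 CPM). Aqp7 ranged from 24.2 to 39.6 CPM (median 30.1) in young and from 19.1 to 34.4 CPM (median 26.0) in nephritic mice, a log2 change of −0.26 (SE 0.05, adjusted p = 4.42e-06). Within set 2 alone it was −0.16 (SE 0.05, adjusted p = 0.00687), where 55.9% of all genes were called. Fat cell markers, which Aqp7 would share, had a summed level of 19.8 to 499 CPM in young and 18.1 to 504 CPM in nephritic mice, and 0 of 6 passed the test in edgeR (0 at an unadjusted p under 0.05). With Adipoq as a covariate the change of Aqp7 was also −0.26 (SE 0.05). At ZT12 alone, 4 of the 6 adipocyte markers were lower in nephritic mice (median log2 change −1.38), and 4 of 4 adrenal markers were lower too. At that time Aqp7 was lower at −0.41 on the log2 scale (adjusted p = 3.83e-04). The summed adipocyte markers at ZT12 were at 77.0 to 499 CPM in young and 25.2 to 179 CPM in nephritic mice, and the part of these markers in the change of Aqp7 at ZT12 was not tested.

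The collecting duct genes Aqp3, Aqp6 and Avpr2 did not pass the test. Aqp3, the basolateral exit channel, ranged from 72.4 to 180.3 CPM (median 113) in young and from 72.2 to 157 CPM (median 113) in nephritic mice. The 95% interval of its log2 change was −0.19 to 0.09. Aqp6 had a median of 110.4 CPM in young and 106 CPM in nephritic mice, and the interval was −0.19 to 0.10. Avpr2 had a median of 31.3 CPM in both groups, and the interval was −0.15 to 0.10. None of the 5 principal cell markers passed the test in edgeR (1 at an unadjusted p under 0.05), and 3 of the 6 intercalated cell markers did, 2 higher and 1 lower. All 6 immune cell markers rose, from a summed 31.7 to 57.1 CPM in young mice to 82.5 to 1125 CPM in nephritic mice. All 5 tubule injury markers rose as well, from 37.8 to 147 CPM to 45.8 to 1818 CPM.

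Aqp2 was the member that was higher in nephritic mice. It ranged from 342 to 767 CPM with a median of 643 in young mice, and from 338 to 1910 CPM with a median of 716 in nephritic mice. Of the nephritic mice, 11 were above the highest young mouse and 1 was below the lowest. The log2 change was 0.33 (SE 0.12, adjusted p = 0.0146). It rested on the set 1 mice: without them it was 0.10 (SE 0.10, adjusted p = 0.373). Within set 1, the nephritic mice held 735 to 1910 CPM and the young mice 342 to 615 CPM, and the groups did not overlap. Within set 2 at the same times, 483 to 1084 CPM in nephritic mice overlapped 357 to 767 CPM in young mice.

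**Figure D2:**
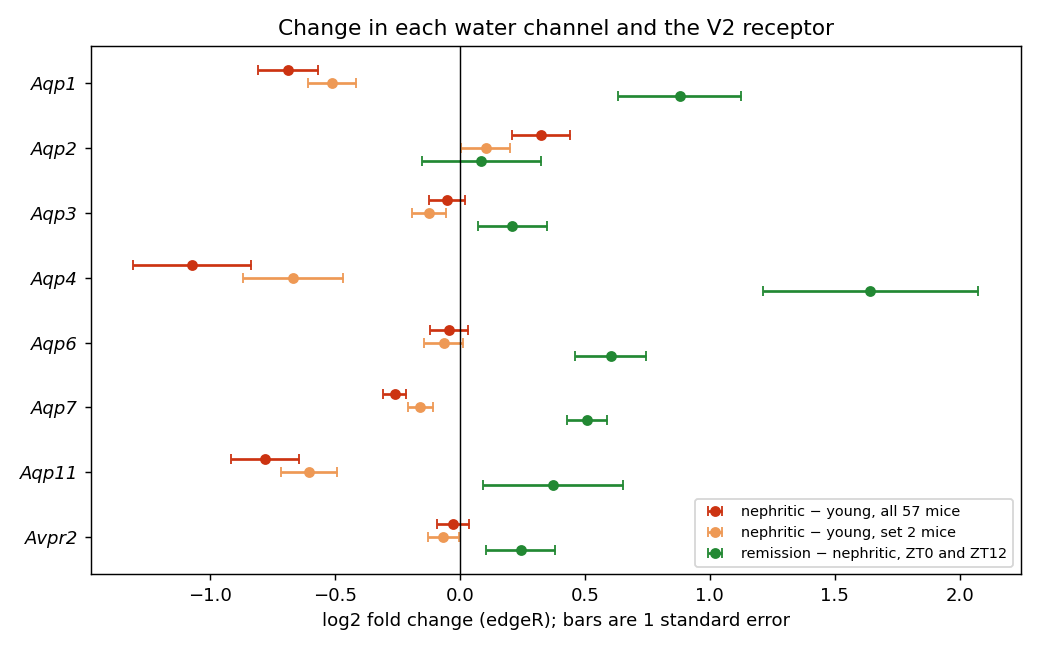
Log2 fold change of each gene (horizontal axis, edgeR, bars are 1 standard error) for nephritic minus young over all 57 mice, the same within the 46 set 2 mice, and remission minus nephritic at ZT0 and ZT12. Aqp1, Aqp4, Aqp7 and Aqp11 are left of 0 in both nephritic estimates, Aqp2 moves from 0.33 to 0.10 without set 1, and the remission estimates of Aqp1, Aqp4, Aqp6 and Aqp7 lie right of 0.

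Among nephritic mice, the proximal genes Aqp1 and Aqp11, with Aqp4, had lower levels where the tubule injury gene Havcr1 (KIM-1) was higher, and Aqp2 did not pass this test. The slope of log2 expression on log2 CPM of Havcr1 passed the test for 5 members, all negative, against 24.8% of all genes called with a negative slope and 49.9% in either direction. For each doubling of Havcr1, Aqp1 fell by 0.34 (SE 0.04, adjusted p = 1.63e-07), Aqp11 fell by 0.38 (SE 0.04, adjusted p = 6.69e-08) and Aqp4 fell by 0.51 (SE 0.09, adjusted p = 2.97e-05) on the log2 scale. The slope was −0.12 for Aqp3 (SE 0.03, adjusted p = 0.00182) and −0.12 for Aqp6 (SE 0.03, adjusted p = 2.69e-04). The slopes of Aqp2 (−0.05, 95% interval −0.13 to 0.03), Avpr2 (−0.03, interval −0.08 to 0.02) and Aqp7 (−0.03, interval −0.07 to 0.0022) did not pass. In the same fit, 8 of 8 proximal tubule, 3 of 4 thick ascending limb and 4 of 6 intercalated cell markers had a negative slope past the threshold. Of the adrenal markers, 4 of 4 had a positive one. The adrenal gene Cyp11b1 was at 219 CPM in nephritic ZT0 replicate 4, a mouse with 768 CPM of Havcr1. It was at most 1.29 CPM in the other nephritic mice. The part of all these cell types in the slopes was not tested. The same 5 members were called within set 2 alone, where the slope was −0.28 for Aqp1, −0.35 for Aqp11 and −0.47 for Aqp4.

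**Figure D3:**
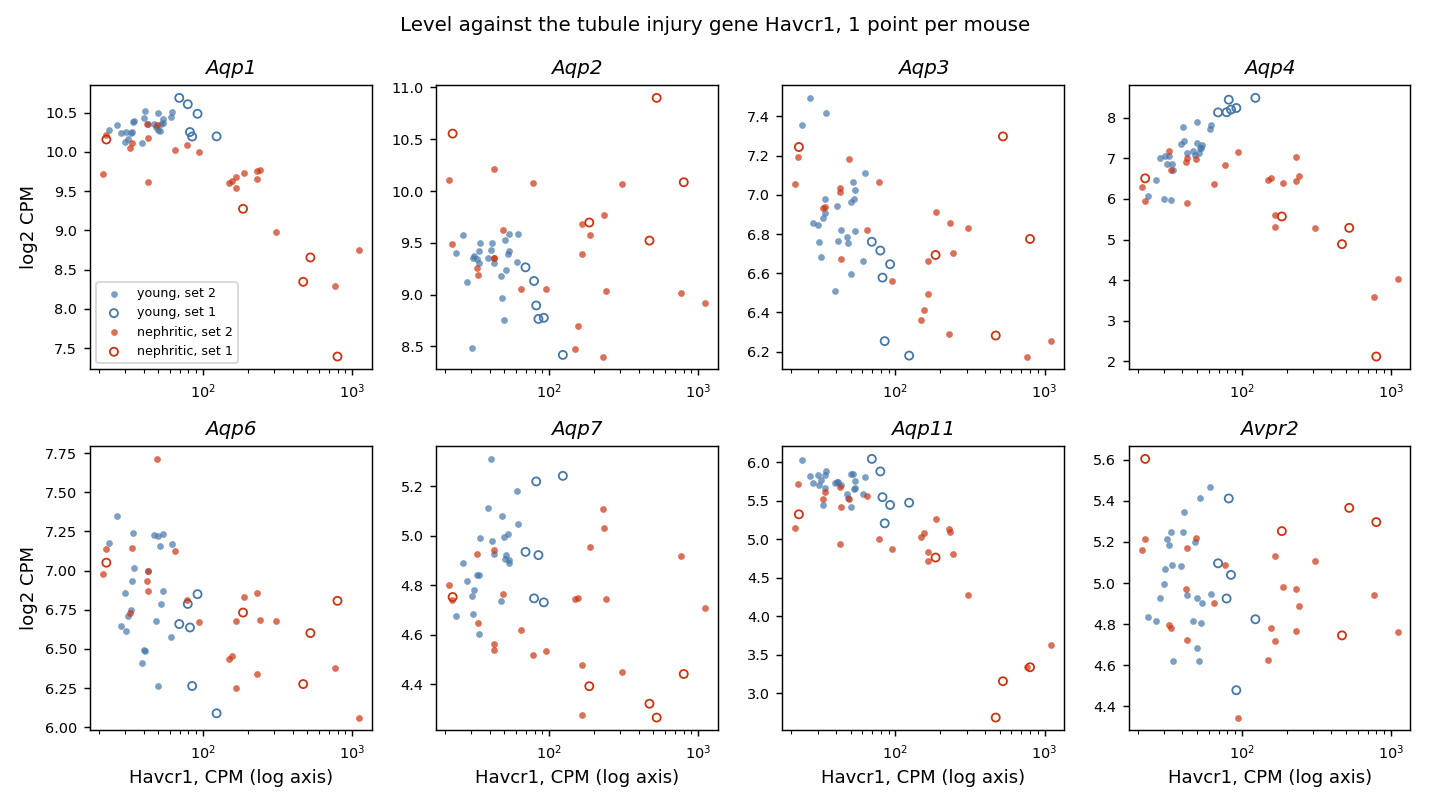
Log2 CPM of each gene (vertical axes) against CPM of the injury gene Havcr1 (horizontal axes, log scale), with 1 point per young or nephritic mouse and open circles for set 1. Aqp1, Aqp4 and Aqp11 are lower in the nephritic mice with more Havcr1 (log2 slopes −0.34, −0.51 and −0.38 per doubling), and the slopes of Aqp2 (−0.05) and Avpr2 (−0.03) did not pass the test.

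The next question was whether the levels followed the time of day. In young mice, 7 of the 8 members differed between the 6 time points, against 39.8% of all 16521 genes tested. In the same fit 6 of 6 adipocyte and 4 of 4 adrenal markers differed over the day, and in nephritic mice 5 of 6 and 4 of 4 did. The summed adrenal markers of nephritic mice had a median of 6.66 CPM, and their maximum of 1117 CPM was in ZT0 replicate 4. Cyp11b1 was high in that nephritic library alone. The part of adipocyte and adrenal markers in the daily courses was not tested. Aqp3 was highest at ZT8, with 134, 164, 171 and 180.3 CPM in the 4 mice, and the 26 other young mice had 138 CPM or less. The highest minus lowest set-adjusted mean of Aqp3 was 0.58 on the log2 scale (adjusted p = 1.69e-05). Aqp6 was highest at ZT12 after adjustment for set and lowest at ZT20, where its 4 mice had 76.6 to 95.2 CPM against 129 to 163 CPM at ZT8 (adjusted p = 2.26e-05). After the same adjustment Aqp11 was highest at ZT8 (adjusted p = 0.0155) and Aqp1 at ZT12 (adjusted p = 8.18e-04). The range over the day of Aqp1 was 0.28 on the log2 scale, the smallest of the 8.

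After adjustment for set, Aqp4, Aqp7 and Avpr2 were highest at ZT20 or ZT0. The adjusted mean of Aqp4 was highest at ZT20 and lowest at ZT8, with a range over the day of 1.12 on the log2 scale (adjusted p = 0.0100). Without the adjustment the mean CPM of Aqp4 was 218 at ZT12, 212 at ZT0 and 209.7 at ZT20. Aqp7 was highest at ZT20 (adjusted p = 0.0453), and 19 of the 30 fits without 1 young mouse lost this call, with adjusted p up to 0.130. Avpr2 had adjusted means of 5.11 (log2 CPM) at both ZT0 and ZT20, with 35.9 ± 5.36 CPM (SD, n = 7) and 37.1 ± 8.08 CPM (n = 4), and was lowest at ZT8, where its 4 mice had 24.5 to 28.4 CPM (adjusted p = 0.0223). Leaving out ZT8 replicate 1 or ZT8 replicate 3 moved it to at most 0.0540. Aqp2 did not pass in young mice (adjusted p = 0.0954), with mean levels of 490.1 ± 130 CPM (SD, n = 7) at ZT0 and 691 ± 66.7 CPM (n = 4) at ZT8.

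In nephritic mice, Aqp2 and Aqp7 passed, against 21.6% of all 16872 genes tested. Aqp2 had 338, 356, 416 and 525 CPM in the 4 mice at ZT4 and 1076, 1102 and 1184 CPM in the 3 mice at ZT16. These values did not overlap, and the set-adjusted difference was 1.48 on the log2 scale (adjusted p = 0.00820 over the 6 time points). Aqp7 was highest at ZT20 (26.7 to 32.7 CPM) and lowest at ZT12 (19.1 to 23.5 CPM; adjusted p = 0.0223). Both lost the call when set was not a covariate (adjusted p = 0.0592 for Aqp2 and 0.0613 for Aqp7). Aqp6 had an adjusted p of 0.0510, and Aqp3 of 0.228. Without ZT8 replicate 3, whose Arntl and Dbp stood apart from its time point, Aqp6 passed as well (adjusted p = 0.0218 for Aqp6, 0.0103 for Aqp2 and 0.0217 for Aqp7). This was 1 of 6 among the 27 fits without 1 library in which Aqp6 passed. Aqp1, Aqp4 and Aqp11 had adjusted p-values of 0.903, 0.939 and 0.646, with a spread between nephritic mice of 0.66, 1.14 and 0.74 (residual SD on the log2 scale) against 0.09, 0.39 and 0.15 between young mice.

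The test of the group by time interaction asked whether the daily course differed between nephritic and young mice. It passed for Aqp2 alone among the members (adjusted p = 0.0413), against 6.27% of all 17521 genes. Aqp2 at ZT4 was lower in the nephritic mice than in all 4 young mice (556 to 687 CPM), and at ZT16 all 3 nephritic mice were above all 4 young mice (579 to 687 CPM). The call was lost in 26 of 57 fits without 1 library, with adjusted p up to 0.0945, so it lies near the threshold. Without nephritic ZT8 replicate 3, Aqp2 (adjusted p = 0.0419) and Aqp6 (0.0259) passed. Aqp6 had an adjusted p of 0.0591 with all libraries and passed in 15 of the 57 fits without 1 library, so it too lies near the threshold. Within set 2 alone Aqp2 had an adjusted p of 0.0132, and Aqp3 (0.0426), Aqp6 (0.0334) and Avpr2 (0.0388) passed as well, against 9.89% of all genes. When the day was fitted by a 24 h wave, the adjusted p of Aqp2 was 0.164.

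At single time points, 5 of the 8 members differed at ZT0, 6 at ZT12, 1 at ZT16 and 0 at ZT4, ZT8 and ZT20. The shares of all genes called were 39.5%, 50.0%, 17.7%, 30.3%, 3.66% and 5.48% in that order of ZT0, ZT12, ZT16, ZT4, ZT8 and ZT20. At an unadjusted p under 0.05 there were 3 members at ZT4 (Aqp2, Aqp11 and Avpr2, all lower) and 2 at ZT8 (Aqp3 and Aqp7, both lower). At ZT20 there were 2, with Aqp4 lower and Aqp6 higher. None of these passed after adjustment, and the share of all genes at the unadjusted threshold is not given here. ZT0 and ZT12 held 13 or 14 mice and all set 1 libraries, the other times 7 or 8 mice. At ZT16 Aqp2 rose by 0.81 on the log2 scale (SE 0.29, adjusted p = 0.0408). Leaving out any of the 7 mice of that time point ended the call (adjusted p up to 0.0902). At ZT4 the log2 change was −0.65 (SE 0.27, adjusted p = 0.0604). Within set 2, Aqp2 passed at both times, at −0.58 (SE 0.18, adjusted p = 0.0123) for ZT4 and 0.84 (SE 0.19, adjusted p = 0.00134) for ZT16, and did not pass at ZT0 (0.08, adjusted p = 0.768) or ZT12 (0.10, adjusted p = 0.714). With set 1, Aqp2 rose at ZT0 by 0.67 (SE 0.21, adjusted p = 0.00819) and at ZT12 by 0.54 (SE 0.21, adjusted p = 0.0286). Of the other members, Aqp1 (−0.63, adjusted p = 0.0366) and Aqp11 (−0.70, adjusted p = 0.0485) passed at ZT0 within set 2, where 31.5% of all genes were called. Aqp4 (−0.69, adjusted p = 0.242) and Aqp7 (−0.03, adjusted p = 0.879) did not. At ZT12 within set 2, Aqp6 (−0.54, adjusted p = 0.00924), Aqp7 (−0.34, adjusted p = 0.0150) and Aqp11 (−0.78, adjusted p = 0.0308) passed, where 29.3% of all genes were called. Aqp1 (−0.48, adjusted p = 0.117) and Aqp4 (−0.61, adjusted p = 0.313) did not. With set 1, Aqp6 was lower in nephritic mice at ZT12, at −0.45 (SE 0.14, adjusted p = 0.00624), and Aqp11 was lower there at −1.36 (SE 0.29, adjusted p = 1.29e-04).

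**Figure D4:**
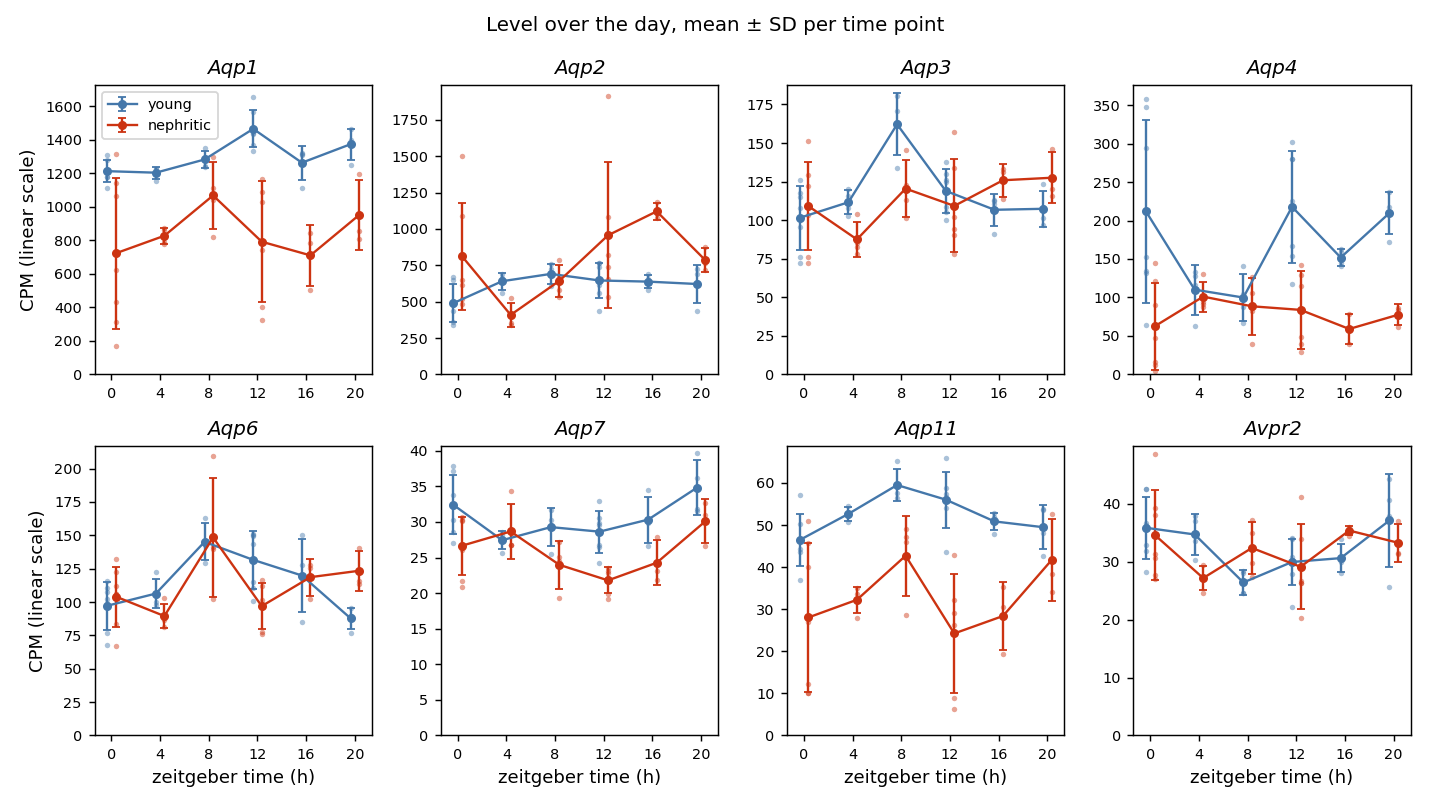
CPM (vertical axes, linear from 0) of each gene over zeitgeber time (horizontal axes, h) in young and nephritic mice; small points are mice, and large points and bars are the mean and SD of each time point. Aqp3 peaks at ZT8 in young mice, and the nephritic Aqp2 curve is below the young curve at ZT4 and above it at ZT16.

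The third comparison asked where the levels lay after treatment. At ZT0 and ZT12, 4 members differed between remission and nephritic mice, against 37.5% of all 16841 genes called. Aqp1 had 1196 to 1634 CPM (median 1466) in remission, and its log2 change from nephritic mice was 0.88 (SE 0.24, adjusted p = 0.00537). Aqp4 had 111 to 335 CPM (median 235), a change of 1.64 (SE 0.43, adjusted p = 0.00333). Aqp7 had 27.9 to 41.4 CPM (median 35.6), a change of 0.51 (SE 0.08, adjusted p = 9e-06). Aqp6, the intercalated cell channel, had 121 to 201 CPM (median 168), a change of 0.60 (SE 0.14, adjusted p = 0.00121). Aqp11 had 27.9 to 56.0 CPM (median 35.3), and 5 of 8 mice lay below the lowest young mouse. Its log2 differences were 0.37 (95% interval −0.17 to 0.92, adjusted p = 0.304) from nephritic and −0.63 (interval −1.20 to −0.06, adjusted p = 0.0828) from young mice.

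Against young mice, 2 members passed, both higher in remission, where 41.6% of all genes were called and 21.2% were higher. Aqp2 had 468 to 1168 CPM (median 813) in remission, with 4 of 8 mice above the highest young mouse, and a log2 change of 0.70 (SE 0.22, adjusted p = 0.0110). Without the set 1 libraries it was 0.46 (SE 0.19, adjusted p = 0.0582). Aqp6 changed by 0.46 (SE 0.14, adjusted p = 0.00794). The difference of Aqp1 from young mice was 0.02, with a 95% interval of −0.48 to 0.53. Both comparisons use the same remission mice, whose libraries all belong to the later set. In the 4 mice sequenced in both sets, the later library held more Aqp6 in 4 of 4 (log2 differences 0.06 to 0.19) and more Aqp3 in 4 of 4 (0.16 to 0.24). It held more Aqp7 in 3 of 4 (−0.0082 to 0.31), and less Aqp1 (−0.30 to −0.03) and Aqp4 (−0.66 to −0.07) in 4 of 4. In remission against nephritic mice, 3 of 4 thick ascending limb and 4 of 5 endothelial markers were higher, and 4 of 5 injury and 4 of 4 adrenal markers were lower. Of the 8 proximal tubule markers 1 was higher and 1 lower. Among nephritic mice, the adrenal gene Cyp11b1 was high in ZT0 replicate 4 alone. The part of these markers in the changes was not tested. With a term for the later set, called the run term, bridged by the 4 mice sequenced in both sets, 0 members passed in either comparison in edgeR. Far fewer of all genes passed with this term too, with the counts given in the closing section. Against nephritic mice the estimates with the run term were 0.95 (SE 0.44, adjusted p = 0.223) for Aqp1 and 1.96 (SE 0.77, adjusted p = 0.147) for Aqp4. Those without the run term were 0.88 (SE 0.24) and 1.64 (SE 0.43). When the mouse whose repeat was nearest to another mouse was left out, the estimates with the run term were 0.85 (SE 0.49, adjusted p = 0.473) and 1.71 (SE 0.87, adjusted p = 0.401). Over the 8 alternative fits, both run terms among them, the estimate against nephritic mice ranged from 0.37 to 0.71 for Aqp6. For Aqp7 it ranged from 0.36 to 0.51. Against young mice that of Aqp6 ranged from 0.27 to 0.52. Without the set 1 libraries, Aqp3 (0.33, adjusted p = 0.0163) and Avpr2 (0.34, adjusted p = 0.0405) also passed against nephritic mice. Aqp7 then passed against young mice (0.24, adjusted p = 0.0115).

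Between ZT0 and ZT12, 5 members were lower at ZT0 in young mice, against 16.6% of all genes called and 9.05% called lower. These were Aqp1 (−0.29), Aqp2 (−0.41), Aqp3 (−0.26), Aqp6 (−0.46) and Aqp11 (−0.30) on the log2 scale. In nephritic mice 0 members passed in edgeR, where 0.0746% of all genes were called, and Aqp7 had an unadjusted p of 0.00106. In remission mice 0 of 14451 genes passed in edgeR, and Aqp4 and Aqp7 had unadjusted p-values of 0.0251 and 0.00434. Without the library labelled ZT12 replicate 4, whose Arntl and Dbp were near the ZT0 levels, 1.41% of all genes passed. Aqp7 was among them, higher at ZT0 by 0.44 (SE 0.08, adjusted p = 0.0374), and Avpr2 had 0.76 (SE 0.15, adjusted p = 0.0557).

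The levels of the members also moved together between mice, after the means of group, time point and set were removed. Aqp2 and Avpr2 had the highest correlation of any pair in young mice (Pearson r = 0.74, n = 30), and r was 0.84 in nephritic mice (n = 27). In nephritic mice Aqp1, Aqp4 and Aqp11 were also correlated, with r of 0.94 for Aqp1 with Aqp4 and 0.93 for Aqp1 with Aqp11. In young mice these were 0.03 and 0.30. Within set 2 alone they were 0.91 and 0.96 in nephritic and 0.23 and −0.06 in young mice. Aqp3 and Aqp6 were correlated with them as well in the nephritic mice of set 2, with r of 0.87 for Aqp1 with Aqp3, 0.77 for Aqp1 with Aqp6, 0.78 for Aqp3 with Aqp11 and 0.76 for Aqp3 with Aqp4. The values of a mouse share its library, depth and tissue composition, so these are descriptions without a test.

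**Figure D5:**
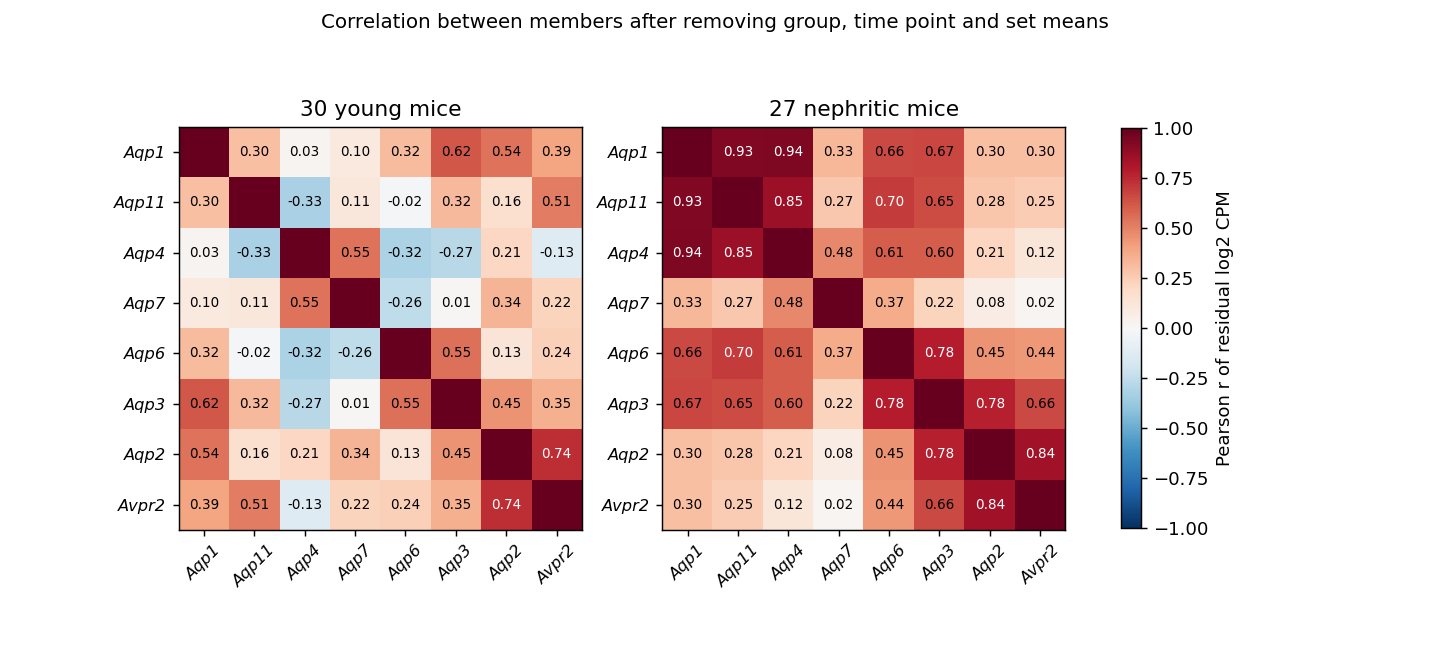
Pearson correlation (colour and number) of residual log2 CPM between the 8 genes over 30 young mice (left) and 27 nephritic mice (right). Aqp2 with Avpr2 is high in both (0.74 and 0.84), and Aqp1, Aqp11 and Aqp4 have r of 0.85 to 0.94 with each other in the nephritic panel, where Aqp1 with Aqp3 (0.67) and with Aqp6 (0.66) is lower.

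Over all 57 mice pooled, Aqp1 and Aqp11 followed the mean of the 8 proximal tubule markers (r = 0.90 and 0.94). Most of the spread came from nephritic mice, with a residual SD of 0.66 and 0.74 on the log2 scale. It was 0.09 and 0.15 in young mice. The r with markers and the genes most alike were not computed within each group. Aqp4, known as a basolateral channel of principal cells, had r of 0.79 with the proximal tubule and 0.85 with the thick ascending limb markers. Its r with the 5 principal cell markers was −0.61. The set term was shared by both groups, so a group difference that was unequal between the sets was not removed. The sign of r could change with this pooling. Aqp2 with Aqp4 had r of −0.15 over all 57 mice, 0.21 in young and 0.21 in nephritic mice. Aqp2 and Avpr2 followed the principal cell markers (0.67 and 0.65), and Aqp6 followed the intercalated cell markers (0.71). Of 14178 genes with a mean of at least 1 CPM, those most like Aqp6 included Rhcg (0.85) and Atp6v1b1 (0.85). Those most like Aqp1 were Fam107a (0.96), Slc2a5 (0.96) and Dio1 (0.95), and those most like Aqp11 were Gcdh (0.99), Echs1 (0.98) and Upb1 (0.98). Aadat (0.96), Kyat3 (0.95) and C8a (0.95) were most like Aqp4. Aqp2 was most like Avpr2 (0.82), Dtnb (0.79) and C1qtnf4 (0.77), and Avpr2 was most like Aqp2, Smagp (0.82) and Fbxo44 (0.81). Aqp3 was most like Rapsn (0.80), Psmd3 (0.78) and Aqp6 (0.77), and Aqp7 was most like Lrp8 (0.77), Dqx1 (0.74) and Atp7b (0.72).

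Other genes of the vasopressin pathway were compared between nephritic and young mice in the same fit. Of 18 genes of vasopressin signalling, which include adenylyl cyclases, protein kinase A and genes that end the signal, 3 rose and 9 fell, a share near the 62.1% of all genes. Those that rose were the arrestins, which end receptor signalling, Arrb2 (1.22, SE 0.10, adjusted p = 1.46e-14) and Arrb1 (0.10, SE 0.04, adjusted p = 0.0260) and the phosphodiesterase Pde4b, which degrades cAMP (0.26, SE 0.06, adjusted p = 3.77e-04). The summed 6 immune cell markers were at 31.7 to 57.1 CPM in young and 82.5 to 1125 CPM in nephritic mice. In bulk tissue the cell type behind a rise is not known, and the part of immune cells in these rises was not tested. The largest falls were in Prkar2b (−0.42, SE 0.16, adjusted p = 0.0228), a regulatory subunit of protein kinase A, Pde4d (−0.39, SE 0.09, adjusted p = 1.55e-04) and the anchor protein Akap7 (−0.37, SE 0.05, adjusted p = 7.30e-08). Over the day, 11 of these 18 genes differed in young and 4 in nephritic mice, against 39.8% and 21.6% of all genes. In the interaction test in edgeR 0 passed (4 at an unadjusted p under 0.05), against 6.27% of all genes.

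Of 10 genes for vesicle traffic, 3 rose and 5 fell, against 28.1% of all genes higher and 33.9% lower. Sipa1, a Rap1 regulator that binds AQP2, rose by 0.69 (SE 0.08, adjusted p = 2.00e-10), Stx4a by 0.19 and Mal by 0.15. The part of immune cells in the rise of Sipa1 was not tested either. Myo5b, the motor of recycling vesicles, fell by 0.29, Rab11fip2 fell by 0.28 and Snap23 fell by 0.21. Of 6 tested genes of the osmotic response and urea transport, 2 fell, near the 33.9% of all genes, the urea transporter Slc14a1 (−0.67, SE 0.18, adjusted p = 0.00104) and the betaine transporter Slc6a12 (−0.60, SE 0.23, adjusted p = 0.0227). Among regulators of the collecting duct, Grhl2 rose (0.13). Among other aquaporins, Aqp8 fell (−1.27, SE 0.26, adjusted p = 2.92e-05) at a median of 2.45 CPM in young and 1.68 CPM in nephritic mice. Mip (0.31), Aqp5 (−0.24) and Aqp9 (−1.01) did not pass, and Aqp12 had too few reads to be tested.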

How the data were processed

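RNA from perfused kidneys was extracted with TRIzol, and mRNA was selected with oligo-dT and sequenced in 150 base reads. The deposited counts are raw counts per gene symbol. According to the study's methods, the authors aligned reads to mm10 together with splice junction segments, and counted uniquely aligned reads. The submitters' processing notes name HISAT and mm10. Its version and the strand setting are not given in the sources used here. Of 24538 symbols, 15 had empty cells and were left out. The submitters' labels gave each mouse its diagnosis and time.

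Counts were fitted in R 4.3.3 with edgeR 4.0.16 (TMM scaling, quasi-likelihood F test), with genes of at least 100 counts over the libraries of a fit. Nephritic and young mice were compared with time point and set as covariates, the daily course by an F test over the 6 time points, and remission at ZT0 and ZT12. Benjamini-Hochberg adjustment covered all genes tested, with a threshold of 0.05. The 95% intervals are the estimate with its standard error and the normal quantile. Log2 CPM used a prior count of 2. The alternatives were RLE scaling, no filter, DESeq2 1.42.0, limma 3.58.1 with voom, other covariates and library sets, and leaving out each library. The code was tested on simulated counts. Named list genes were the 3 per direction with the largest change past the threshold, and all genes of lists of up to 5. The genes most like each member were the 3 with the highest Pearson r among genes of at least 1 CPM. A few genes that these rules select are not reported here. Tables used Python 3.11.15, pandas 2.3.3, numpy 2.4.6 and matplotlib 3.10.9. Gene positions are from GENCODE M21 and upstream sequences from RefSeq (GRCm38.p6). The members and lists were chosen with earlier results of these data known. The leave-out of set 1 from the remission comparisons was added after seeing the data. Each library is labelled as 1 mouse.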

Additional observations from a re-analysis of the deposited data

Results flagged for a closer look

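Over the 8 members, 96 combinations of a gene with a group of 4 to 10 mice were examined. In 5 of them 1 mouse stood apart by Dixon's criterion, and chance alone flags about 1 in 20. Combinations that share mice are not independent. Aqp1 was lowest in young ZT16 replicate 1, at 1110 CPM against 1308 to 1318 CPM in the other mice of that time point. Aqp3 was lowest in the same mouse, at 91.1 CPM against 110.3 to 113 CPM. Aqp1 was lowest in remission ZT12 replicate 2, at 1196 CPM against 1447 to 1484 CPM. Aqp7 was highest in nephritic ZT4 replicate 4, at 34.4 CPM against 26.7 to 26.8 CPM. Aqp11 was lowest in nephritic ZT8 replicate 3, at 28.6 CPM against 46.0 to 49.0 CPM, and this is the library whose Arntl and Dbp stood apart from the others labelled ZT8.

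The daily course of Aqp2 differed between nephritic and young mice in the test of group by time (edgeR quasi-likelihood test, adjusted p = 0.0413). The call lies near the threshold and was lost in 26 of 57 fits without 1 library (adjusted p up to 0.0945).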

How the results depend on the processing

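Leaving out any 1 library kept 5 of 8 members called between nephritic and young mice over the day. The count of members called with a daily course in nephritic mice was 2, and became 4 with DESeq2, 0 without the set covariate and 1 with the repeat libraries in place of the originals. The count for group by time was 1, and became 2 with RLE scaling, 2 with DESeq2, 4 in set 2 alone, and 0 without the filter, with the repeats or with a 24 h cosine and sine. It ranged from 0 to 2 when 1 library was left out. With the run term bridged by 4 or by 3 mice, 0 members passed in both remission comparisons (4 against nephritic and 2 against young mice without it). Without set 1, 3 members in place of 5 differed between nephritic and young mice at ZT0 and ZT12: Aqp1, Aqp11 and Aqp6 passed, and Aqp2, Aqp4 and Aqp7 did not. Between ZT0 and ZT12 in remission, 0 to 1 members passed when 1 library was left out.

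Of all genes, 3646 were called with a daily course in nephritic mice, 1994 without the set covariate and 362 with the cosine and sine. For group by time 1099 were called, 2186 with DESeq2, 455 with limma, 693 with the repeats, 1715 in set 2 alone and 121 with the cosine and sine. Against nephritic mice, 6319 genes were called in remission, 553 with 4 and 246 with 3 bridging mice, and against young mice 7002, 1238 and 577.

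Signs turned only for members that did not pass. Nephritic minus young, Avpr2 was 0.00036 with Adipoq as a covariate. In set 2 alone at ZT0, Aqp3 was −0.20 and Aqp6 −0.18. Aqp6 was −0.0048 at ZT8 with limma, and at ZT16 it was 0.013 with RLE, 0.013 with DESeq2, 0.0069 with limma and 0.018 in set 2 alone. Avpr2 at ZT12 was 0.042 with the repeats. In remission minus nephritic, Aqp2 was −0.078 and −0.045 and Aqp3 −0.079 and −0.032 with 4 and 3 bridging mice. In remission minus young, Aqp1 was −0.029 with limma and −0.026 with Adipoq, and Aqp4 −0.034 with Adipoq. At ZT0 and ZT12 together, Aqp3 was −0.0055 without the filter, −0.019 with limma and −0.24 without set 1. When 1 library was left out, 16 results changed sign in at least 1 fit, none of them past the threshold. Nephritic minus young, Aqp6 ranged from −0.068 to 0.0051 and Avpr2 from −0.038 to 0.012 over the day. Avpr2 ranged from −0.12 to 0.018 at ZT0 and from −0.14 to 0.047 at ZT12. Aqp4 ranged from −0.32 to 0.0066 at ZT4 and from −0.35 to 0.097 at ZT8. Aqp2 ranged from −0.17 to 0.0095 at ZT8, and Aqp6 from −0.14 to 0.20 at ZT8 and from −0.12 to 0.11 at ZT16. Aqp3 ranged from −0.051 to 0.052 at ZT0 and ZT12 together. Remission minus nephritic, Aqp2 ranged from −0.021 to 0.17, and remission minus young, Aqp1 ranged from −0.059 to 0.075 and Aqp4 from −0.028 to 0.26. Between ZT0 and ZT12 in remission, Aqp2 ranged from −0.074 to 0.31, Aqp3 from −0.092 to 0.057 and Aqp11 from −0.28 to 0.021. No paired analysis was possible between groups or times because the labels give the mice no replicate numbers and each mouse was harvested once. The replicate numbers used here follow accession order. The repeat libraries of the 4 mice sequenced in both sets were matched to their originals by title.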
